A study of Mus musculus with 19 samples.

Results

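Transcripts of 9 members of the TNF receptor superfamily were followed across 19 mouse pancreatic ductal organoid lines. The members are Tnfrsf11b, Tnfrsf1a, Tnfrsf1b, Tnfrsf12a, Tnfrsf19, Tnfrsf21, Tnfrsf11a, Ltbr and Cd40, taken by gene symbol from a table of 29861 rows, and each symbol matched a single row. Of these, 8 reached 1 TPM in at least 6 lines and were tested, while Cd40 did not. TPM is a transcript level corrected for gene length and scaled to the same total in every line, so levels of different genes can be compared.

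The lines were cultures of duct epithelium grown as hollow spheres in Matrigel with EGF, FGF-10, gastrin, noggin, R-spondin and a TGF-beta receptor inhibitor. The 6 tumor lines came from pancreatic adenocarcinomas of mice carrying Trp53LSL-R172H and Pdx1-Cre. The 6 PanIN lines came from ducts of Pdx1-Cre mice whose pancreas contained pancreatic intraepithelial neoplasia, a precursor lesion. The 7 normal lines came from ducts of wild-type mice, and all mice had a C57B6/J background. Pdx1-Cre drives recombination in pancreatic progenitors of the embryo, and the normal mice carried no Cre. Tumor lines differed from normal lines in genotype and in tissue of origin, and these cannot be told apart. RNA of each line was pooled from several culture wells. The labels number the lines and do not say whether any shared a mouse, so the p-values reflect variation from line to line, which may in part be technical.

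TNF receptors are membrane proteins whose cysteine-rich outer domains bind trimeric ligands of the TNF family. Some carry a cytoplasmic death domain, which recruits the adaptors TRADD or FADD and can start apoptosis or necroptosis; others bind TRAF adaptors, which activate the transcription factor NF-kB and stress kinases. Soluble members bind ligand without signalling and act as decoys. Epithelia use these receptors to answer inflammation and injury, and NF-kB in turn drives chemokines and its own inhibitors.

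Promoter sequence was available for 7 of the 9 members in the RefSeq table, which is of build GRCm38.p6. Each entry covers 250 bases before to 50 bases after an annotated transcription start. The 3 shown here belong to the transmembrane receptors that differed between groups, and they are read 5′ to 3′ on the gene's own strand. Capitals mark bases that match a searched motif on either strand.
Tnfrsf1b, chr4:145246821-145247120, minus strand: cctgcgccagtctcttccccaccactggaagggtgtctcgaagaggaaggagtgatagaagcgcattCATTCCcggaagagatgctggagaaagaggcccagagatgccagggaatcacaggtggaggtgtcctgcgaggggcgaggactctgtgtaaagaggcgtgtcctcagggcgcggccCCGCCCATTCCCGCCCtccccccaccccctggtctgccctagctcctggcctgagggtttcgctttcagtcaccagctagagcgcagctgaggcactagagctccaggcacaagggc
Tnfrsf12a, chr17:23677400-23677699, minus strand: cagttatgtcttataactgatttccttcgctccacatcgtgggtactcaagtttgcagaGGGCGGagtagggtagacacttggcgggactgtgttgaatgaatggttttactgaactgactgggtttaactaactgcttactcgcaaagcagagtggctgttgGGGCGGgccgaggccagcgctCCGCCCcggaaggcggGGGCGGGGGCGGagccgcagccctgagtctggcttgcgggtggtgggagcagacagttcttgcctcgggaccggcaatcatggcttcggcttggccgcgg
Tnfrsf21, chr17:43016305-43016604, plus strand: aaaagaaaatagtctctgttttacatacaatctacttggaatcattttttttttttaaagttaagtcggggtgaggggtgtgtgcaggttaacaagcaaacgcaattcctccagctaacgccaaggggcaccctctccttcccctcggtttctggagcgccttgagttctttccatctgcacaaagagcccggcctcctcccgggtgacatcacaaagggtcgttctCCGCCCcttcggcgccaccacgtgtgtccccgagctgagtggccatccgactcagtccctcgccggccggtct

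The motifs searched were the AP-1 site TGANTCA, the GC box GGGCGG, the TEAD site GGAATG, the TCF/LEF site TCAAAG, the TATA box TATAAA and the NF-kB consensus. They were present in 7.81%, 35.7%, 14.7%, 16% and 13.6% of 32851 promoter windows of the same length, in that order, and the NF-kB consensus in 8.46%. Tnfrsf1b held 2 GC boxes and 2 TEAD matches, with first bases 183 and 62 bases before the start for the TEAD matches. The second TEAD match lies between the GC boxes and shares a base with each. Tnfrsf12a held 5 GC boxes within 191 bases of the start, and Tnfrsf21 held 1, whose first base lay 23 bases before the start. The GC content of these windows was 62.7%, 59.7% and 53.7% for Tnfrsf1b, Tnfrsf12a and Tnfrsf21, against a median of 52.7% over all windows. No NF-kB, AP-1 or TATA match was found in the windows of the 7 members, which says only that these letters are not there. Tnfrsf11a held 5 GC boxes and 1 TEAD match, Ltbr held 2 GC boxes, and Tnfrsf1a held no match. Of the 2 Tnfrsf19 windows, one held 3 GC boxes and 1 TCF/LEF match and the other held none. In the annotation, Ltbr and Tnfrsf1a lie on chromosome 6 on either side of Scnn1a, and Tnfrsf1b lies on chromosome 4 next to Tnfrsf8.

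Between 11938 and 12437 rows reached 1 TPM in a line, and 12500 genes were tested with limma. All 11 duct markers were present in every group, with summed levels of 7505 to 9404 TPM in tumor lines, 8057 to 12519 TPM in PanIN lines and 10428 to 15499 TPM in normal lines. The 8 fibroblast, 5 endothelial and 6 endocrine markers summed to at most 0.17, 0.27 and 0.1 TPM in any line. The 5 acinar markers in the table summed to between 1.23 and 2.77 TPM. The 8 leukocyte markers summed to 1.54 to 4.01 TPM in tumor lines, 2.78 to 3.65 TPM in PanIN lines and 4.41 to 8.24 TPM in normal lines. That sum was carried by Cd68 and Csf1r, while Ptprc, the pan-leukocyte marker CD45, peaked at 0.09 TPM, and Adgre1 (listed as Emr1), Cd3e and Lyz2 were at 0 in all lines. Library identifiers in the column names fall into 3 series, each with lines of all groups. The first has 1 tumor, 3 PanIN and 3 normal lines, the second 3, 1 and 2, and the third 2, 2 and 2. Differences given within a series thus rest on 1 tumor line in the first and 1 PanIN line in the second, and were not tested. Trp53, whose allele carries a point mutation that a transcript level does not check, averaged 69.8 ± 10.2 TPM in tumor lines, 62.0 ± 12.5 TPM in PanIN lines and 67.7 ± 8.44 TPM in normal lines (SD, n = 6, 6 and 7).

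The members covered a wide range of levels. Tnfrsf12a, the TWEAK receptor Fn14, was highest at 363.2 ± 95.3 TPM over the 19 lines (SD) and ranked 301 among all rows. Ltbr followed at 91.2 ± 9.04 TPM. Both were above every other member in each of the 19 lines. Tnfrsf19 and Tnfrsf1a were next at 33.3 ± 11.5 and 30.6 ± 4.03 TPM, and Tnfrsf19 was the higher in 9 of 19 lines. Their order turned between groups: Tnfrsf19 was the higher in 4 of 6 tumor and 4 of 6 PanIN lines, and Tnfrsf1a in 6 of 7 normal lines. Tnfrsf21 averaged 23.1 ± 5.82 TPM and was below Tnfrsf1a in 14 of 19 lines. Tnfrsf1b averaged 7.31 ± 2.22 TPM, below Tnfrsf21 in all 19 lines. The lowest means of tested members over all lines were those of Tnfrsf11b at 4.75 ± 8.26 TPM and Tnfrsf11a at 2.26 ± 0.508 TPM, and Tnfrsf11b was the higher of this pair in 9 of 19 lines. In normal lines the mean of Tnfrsf11b was 1.09 times that of Tnfrsf1b, although it was the higher in 1 of 7. Cd40 stood at 0.166 ± 0.103 TPM and never exceeded 0.43 TPM. The summed level of the members was 477.7 ± 53.3 TPM in tumor lines, 574.3 ± 81.1 TPM in PanIN lines and 606.9 ± 93.4 TPM in normal lines (SD, n = 6, 6 and 7), and Tnfrsf12a alone made up 51.5% to 68.0%, 58.7% to 71.5% and 55.6% to 73.6% of it.

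**Figure D1:**
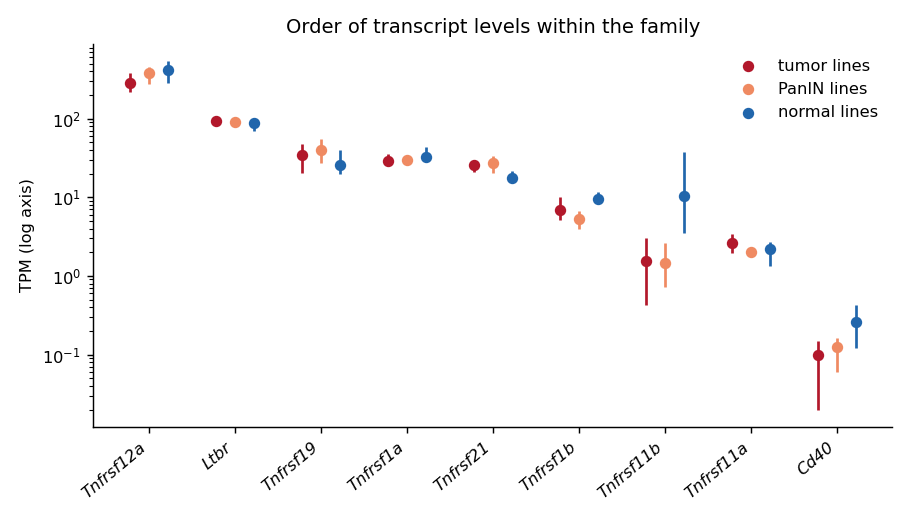
Transcript level of each member on a log axis in TPM, ordered by its mean over all 19 lines; points are group means and lines run from the lowest to the highest line of the 6 tumor, 6 PanIN and 7 normal lines. Tnfrsf12a and Ltbr lie above the rest in every group, Cd40 lies below 1 TPM throughout, and Tnfrsf11b reaches 37.1 TPM in normal lines against 3.07 TPM in tumor lines.

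In tumor lines compared with normal lines, the decoy receptor Tnfrsf11b and the signalling receptors Tnfrsf1b and Tnfrsf12a fell, and the death-domain receptor Tnfrsf21 rose. Tnfrsf11b differed most, by -1.79 (SE 0.39) on the log2(TPM + 1) scale, followed by Tnfrsf12a (-0.56, SE 0.17), Tnfrsf21 (0.50, SE 0.13) and Tnfrsf1b (-0.43, SE 0.13). These 4 of 8 tested members passed an adjusted p of 0.05 in limma, where 32.2% of all tested genes did. By direction, 1 of 8 was higher against 17.8% of tested genes, and 3 of 8 were lower against 14.4%. The authors' deposited table calls 5 members here, these and Cd40. The share of all genes that this table calls was not counted, and the limma shares are not its background. For 1 member, Tnfrsf11b, the tumor and normal lines did not overlap, which held for 7.26% of tested genes. The median difference of the 8 members was -0.04, against 0.04 for all tested genes. Of the genes called, 55.1% were higher in tumor lines in the values as deposited, and 37.4% after rescaling without 11 rows that the authors' comparison leaves out, which held between 16.3% and 28.6% of TPM per line.

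In PanIN lines compared with normal lines, Tnfrsf11b and Tnfrsf1b fell and Tnfrsf21 rose. The differences were -1.82 (SE 0.39) for Tnfrsf11b, -0.75 (SE 0.13) for Tnfrsf1b and 0.55 (SE 0.13) for Tnfrsf21. In this limma comparison 3 of 8 members were called, against 6.78% of tested genes. Of them 1 was higher, against 3.1%, and 2 were lower, against 3.68%. The authors' deposited table calls 4 members here, these and Tnfrsf19, again without a counted share of all genes. The lines of the groups did not overlap for Tnfrsf11b and Tnfrsf1b, 2 of 8 members against 3.05% of tested genes. The median over members was -0.10, against -0.03 for all tested genes. The comparisons of tumor and PanIN lines with normal lines share the 7 normal lines, so like values in both are not independent.

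In tumor lines compared with PanIN lines, 0 of 8 members were called by limma, where 1.6% of tested genes were called, 0.392% higher and 1.21% lower. Without adjustment, 2 of 8 members had p under 0.05 in limma, Tnfrsf1b and Tnfrsf12a, as did 29.7% of all tested genes. The authors' deposited table calls 0 members, and its share of all genes was likewise not counted. The groups overlapped for every member, while they did not for 1.8% of tested genes. The largest differences were those of Tnfrsf12a, -0.41 (95% interval -0.78 to -0.05, adjusted p = 0.125 in limma), and Tnfrsf1b, 0.33 (0.04 to 0.61, adjusted p = 0.125). Tnfrsf12a was called in this comparison when the line PanIN 6 was left out (-0.50, limma adjusted p = 0.0495). In that fit 2836 of 12500 tested genes were called, 849 of them lower, against 200 with all lines.

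**Figure D2:**
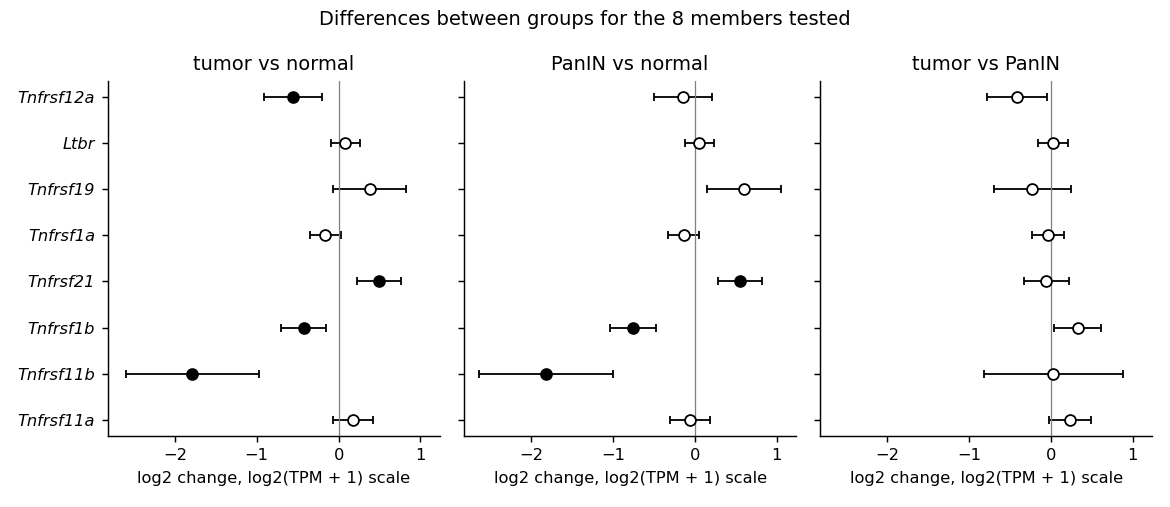
Difference of each tested member on the log2(TPM + 1) scale for tumor against normal, PanIN against normal and tumor against PanIN lines; bars are 95% intervals from limma and filled points have an adjusted p below 0.05. Filled points are 4 in the first panel and 3 in the second, with Tnfrsf11b farthest from 0, and the third panel has none.

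Tnfrsf11b encodes osteoprotegerin, a secreted decoy that binds RANKL and TRAIL. The lowest, median and highest levels were 0.43, 1.30 and 3.07 TPM in tumor lines, 0.73, 1.25 and 2.63 TPM in PanIN lines and 3.49, 5.35 and 37.1 TPM in normal lines. Every tumor and PanIN line was below every normal line. A single normal line, normal 6, was far above the rest, with the second at 11.3 TPM. The means were 1.57 ± 1.01 TPM in tumor lines, 1.44 ± 0.738 TPM in PanIN lines and 10.3 ± 12.1 TPM in normal lines (SD, n = 6, 6 and 7), and the normal mean was 5.84 ± 2.84 TPM without normal 6. The adjusted p in limma was 0.00287 for tumor against normal and 0.00749 for PanIN against normal. The exact two-sided permutation test over lines gave p = 0.00117 for each, from 1716 arrangements. Without normal 6 the differences were -1.42 (adjusted p = 0.00179) and -1.45 (adjusted p = 0.00353) in limma.

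Between tumor and PanIN lines Tnfrsf11b differed by 0.03, with a 95% interval from -0.81 to 0.88 (limma adjusted p = 0.969). In the authors' deposited table the log2 fold changes were -2.37 (adjusted p = 4.12e-05) for tumor against normal and -2.44 (adjusted p = 5.52e-05) for PanIN against normal. The direction was the same within each of the 3 identifier series: -1.34, -2.13 and -1.28 for tumor against normal and -1.87, -1.93 and -1.60 for PanIN against normal. Of the members, Tnfrsf11b also varied most between lines of a group, with a within-group SD of 0.77 on the log2(TPM + 1) scale, larger than in 98.7% of tested genes. Among tumor lines it ran from 0.43 to 1.25 TPM in the 3 female lines and from 1.35 to 3.07 TPM in the 3 male lines, and among PanIN lines from 1.05 to 2.63 TPM in female and from 0.73 to 1.45 TPM in male lines. In bulk RNA, fewer cells with a transcript and less transcript per cell cannot be told apart. The leukocyte marker sum was also highest in normal lines, through Cd68 and Csf1r, with the defining markers Ptprc, Adgre1, Cd3e and Lyz2 at or near 0 in all lines. Its part in the result was not tested.

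Tnfrsf11a encodes RANK, the signalling receptor for RANKL, the ligand that osteoprotegerin captures. Its lowest, median and highest levels were 1.96, 2.45 and 3.40 TPM in tumor lines, 1.80, 2.02 and 2.35 TPM in PanIN lines and 1.35, 2.22 and 2.71 TPM in normal lines. The groups overlapped throughout. The limma adjusted p was 0.256 for tumor against normal (0.18, 95% interval -0.07 to 0.42), 0.859 for PanIN against normal (-0.06, -0.30 to 0.19) and 0.206 for tumor against PanIN (0.23, -0.02 to 0.49). The decoy stood below the receptor in most neoplastic lines: the ratio of Tnfrsf11b to Tnfrsf11a TPM had a median of 0.538 in tumor lines (0.210 to 1.08), 0.626 in PanIN lines (0.346 to 1.45) and 2.61 in normal lines (1.41 to 16.8). Tnfrsf11a was the higher of this pair in 5 of 6 tumor lines and 5 of 6 PanIN lines. Tnfsf11, the RANKL gene, was at 0 in all tumor and all normal lines and reached 0.03 TPM in PanIN lines.

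Tnfrsf1a and Tnfrsf1b encode TNFR1 and TNFR2, the receptors for TNF; TNFR1 carries a death domain and TNFR2 binds TRAF2. Tnfrsf1b had a lowest, median and highest level of 5.15, 6.29 and 10.1 TPM in tumor lines, 3.97, 5.01 and 6.76 TPM in PanIN lines and 8.18, 9.30 and 11.6 TPM in normal lines. All PanIN lines and 5 of 6 tumor lines were below the lowest normal line, while tumor 8 at 10.1 TPM was above 6 of the 7 normal lines. The means were 6.88 ± 1.79 TPM in tumor lines, 5.26 ± 1.18 TPM in PanIN lines and 9.43 ± 1.16 TPM in normal lines (SD, n = 6, 6 and 7). The limma adjusted p was 0.0209 for tumor against normal and 0.00175 for PanIN against normal, and the exact permutation p was 0.0128 and 5.83e-04 for them in that order. Within the 3 identifier series the differences were -0.64, -0.44 and -0.49 for tumor against normal and -0.84, -0.55 and -0.66 for PanIN against normal. The authors' deposited table gives -0.48 (adjusted p = 0.00969) and -0.80 (adjusted p = 2.51e-05). The leukocyte marker sum, carried by Cd68 and Csf1r with Ptprc at most 0.09 TPM, moved the same way as Tnfrsf1b between neoplastic and normal lines. Between tumor and PanIN lines it did not. The median sum was 2.69 TPM in tumor and 2.97 TPM in PanIN lines, where Tnfrsf1b had medians of 6.29 and 5.01 TPM. The part of the marker sum in the result was not tested.

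Tnfrsf1a stood above Tnfrsf1b in every line. Its lowest, median and highest levels were 25.3, 27.7 and 35.7 TPM in tumor lines, 27.6, 29.0 and 32.2 TPM in PanIN lines and 29.3, 31.0 and 43.3 TPM in normal lines. Normal 6 was again the highest line, and the other 6 normal lines reached 34.8 TPM. The limma adjusted p was 0.168 for tumor against normal (-0.16, 95% interval -0.35 to 0.02), 0.465 for PanIN against normal (-0.13, -0.32 to 0.05) and 0.864 for tumor against PanIN (-0.03, -0.22 to 0.17). After rescaling without the 11 rows named above, the first of these became -0.25 with an adjusted p of 0.0371 in limma. The ratio of Tnfrsf1a to Tnfrsf1b had a median of 4.58 in tumor lines (3.03 to 5.68), 5.97 in PanIN lines (4.57 to 7.00) and 3.36 in normal lines (2.59 to 5.29).

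Tnfrsf21 encodes death receptor 6, a death-domain receptor known mainly from neurons and lymphocytes. Its lowest, median and highest levels were 20.8, 26.2 and 29.7 TPM in tumor lines, 20.1, 27.5 and 32.9 TPM in PanIN lines and 15.1, 17.4 and 21.8 TPM in normal lines. The overlap came from 1 normal line, normal 7 at 21.8 TPM, which was above 2 tumor and 2 PanIN lines, and the other 6 normal lines reached at most 18.9 TPM. The means were 25.6 ± 4.07 TPM in tumor lines, 26.9 ± 5.97 TPM in PanIN lines and 17.8 ± 2.20 TPM in normal lines (SD, n = 6, 6 and 7). The limma adjusted p was 0.00776 for tumor against normal and 0.0122 for PanIN against normal, and the exact permutation p was 0.00233 for each. The authors' deposited table gives log2 fold changes of 0.50 (adjusted p = 0.00119) and 0.63 (adjusted p = 6.44e-05).

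The size of the Tnfrsf21 difference varied with the identifier series. For tumor against normal it was 0.15, 0.65 and 0.55 in the 3 series, and for PanIN against normal 0.18, 0.92 and 0.89. The tumor value of the first series and the PanIN value of the second rest on 1 line each. The variation by series was not tested. The PanIN lines fell into separate levels, 20.1 to 24.2 TPM in the 3 female lines of the first series and 30.9 to 32.9 TPM in the 3 male lines of the other series, so series and sex cannot be told apart there. With series as a covariate the differences were 0.44 (adjusted p = 0.0179) and 0.57 (adjusted p = 0.00841) in limma, and with sex as a covariate 0.46 (adjusted p = 0.0130) and 0.52 (adjusted p = 0.0206). Tumor and PanIN lines differed by -0.06 (95% interval -0.33 to 0.22).

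Tnfrsf12a, or Fn14, is the small receptor for TWEAK, is induced by injury and growth factors in many epithelia, and signals through TRAF adaptors. Its lowest, median and highest levels were 220.3, 268.1 and 375.7 TPM in tumor lines, 276.6, 395.6 and 451.0 TPM in PanIN lines and 282.6, 446.6 and 532.9 TPM in normal lines. All tumor lines were below 5 of the 7 normal lines, and the remaining normal lines, normal 10 and normal 6, stood at 282.6 and 292.9 TPM within the tumor range. The means were 283.6 ± 62.1 TPM in tumor lines, 377.1 ± 75.8 TPM in PanIN lines and 419.6 ± 94.9 TPM in normal lines (SD, n = 6, 6 and 7). Tumor lines differed from normal lines by -0.56 (limma adjusted p = 0.0180, exact permutation p = 0.0157). For PanIN against normal the value was -0.14 (95% interval -0.50 to 0.21, limma adjusted p = 0.728). Within the 3 identifier series tumor against normal gave -0.24, -0.36 and -0.93, and PanIN against normal 0.10, 0.18 and -0.77. The PanIN lines of the third series, PanIN 5 and PanIN 6, were the lowest of their group at 293.3 and 276.6 TPM. Tnfsf12, the TWEAK gene, averaged 1.63 ± 0.467 TPM in tumor lines, 1.71 ± 0.633 TPM in PanIN lines and 2.30 ± 0.478 TPM in normal lines, and passed the test in no comparison (limma adjusted p = 0.0769, 0.256 and, for tumor against PanIN, 0.904).

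Tnfrsf19, or TROY, lacks a death domain and is known in the mouse intestine as a Wnt-responsive gene of stem cells. Its lowest, median and highest levels were 20.3, 38.7 and 47.8 TPM in tumor lines, 27.2, 38.0 and 55.7 TPM in PanIN lines and 19.9, 24.1 and 39.4 TPM in normal lines. Tumor lines were split, with tumor 5 and tumor 8 at 21.2 and 20.3 TPM and the other 4 at 35.6 TPM or more. Among normal lines normal 12 stood alone at 39.4 TPM, with the next at 27.3 TPM. No comparison passed limma: the adjusted p was 0.184 for tumor against normal (0.38, 95% interval -0.07 to 0.83), 0.106 for PanIN against normal (0.61, 0.15 to 1.06) and 0.520 for tumor against PanIN (-0.23, -0.70 to 0.24). For PanIN against normal, taken as a single value, the exact permutation p was 0.0163, and the authors' deposited table gives 0.66 with an adjusted p of 0.0387. Within the 3 identifier series that difference was 1.01, 0.86 and -0.20, and normal 12 belongs to the third. Without normal 12 it was 0.71 (limma adjusted p = 0.0618).

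Ltbr encodes the lymphotoxin beta receptor, which answers lymphotoxin and LIGHT and activates the alternative NF-kB route. It was the steadiest member, with a within-group SD of 0.15 on the log2(TPM + 1) scale, against a median of 0.20 over tested genes. The lowest, median and highest levels were 84.4, 92.7 and 102.2 TPM in tumor lines, 82.6, 92.6 and 96.9 TPM in PanIN lines and 70.0, 86.8 and 103.0 TPM in normal lines. The normal lines lined up with the identifier series: 100.03 TPM or more in the first, 70.0 and 74.7 TPM in the second, and 86.2 and 86.8 TPM in the third. Tumor against normal was -0.14, 0.39 and 0.08 within the 3 series. The differences over all lines were 0.08 (95% interval -0.09 to 0.26), 0.05 (-0.12 to 0.23) and 0.03 (-0.15 to 0.21) for tumor against normal, PanIN against normal and tumor against PanIN, with limma adjusted p of 0.463, 0.807 and 0.849. Ltb, which encodes a subunit of its ligand, averaged 7.28 ± 4.15 TPM in tumor lines, 6.79 ± 3.89 TPM in PanIN lines and 12.4 ± 5.13 TPM in normal lines, and was called in no comparison.

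Cd40 encodes a receptor best known on B cells and dendritic cells, which its ligand on T cells activates. Its lowest, median and highest levels were 0.02, 0.11 and 0.15 TPM in tumor lines, 0.06, 0.13 and 0.16 TPM in PanIN lines and 0.12, 0.26 and 0.43 TPM in normal lines. Of the normal lines, 5 of 7 were above every tumor and PanIN line. Cd40 was outside the tested genes. When every gene above 0 in any line was tested, the differences were -0.20 (SE 0.05, limma adjusted p = 0.00869) for tumor against normal, -0.16 (adjusted p = 0.0588) for PanIN against normal and -0.03 (adjusted p = 0.762) for tumor against PanIN. The authors' deposited table lists its mean signal over all lines as 6.02, the lowest of the members, and gives an adjusted p of 0.0102 for tumor against normal. At these levels few reads lie behind a value, and their number in each line is unknown. Of the 8 leukocyte markers, Cd68, Csf1r and Itgam also had their highest mean in normal lines, and Ptprc and Cd79a had it in tumor lines. Ptprc was at most 0.09 TPM, and Adgre1, Cd3e and Lyz2 were at 0 in all lines. The part of such cells in the result was not tested. Cd40lg, the ligand gene, was at 0 in all lines.

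**Figure D3:**
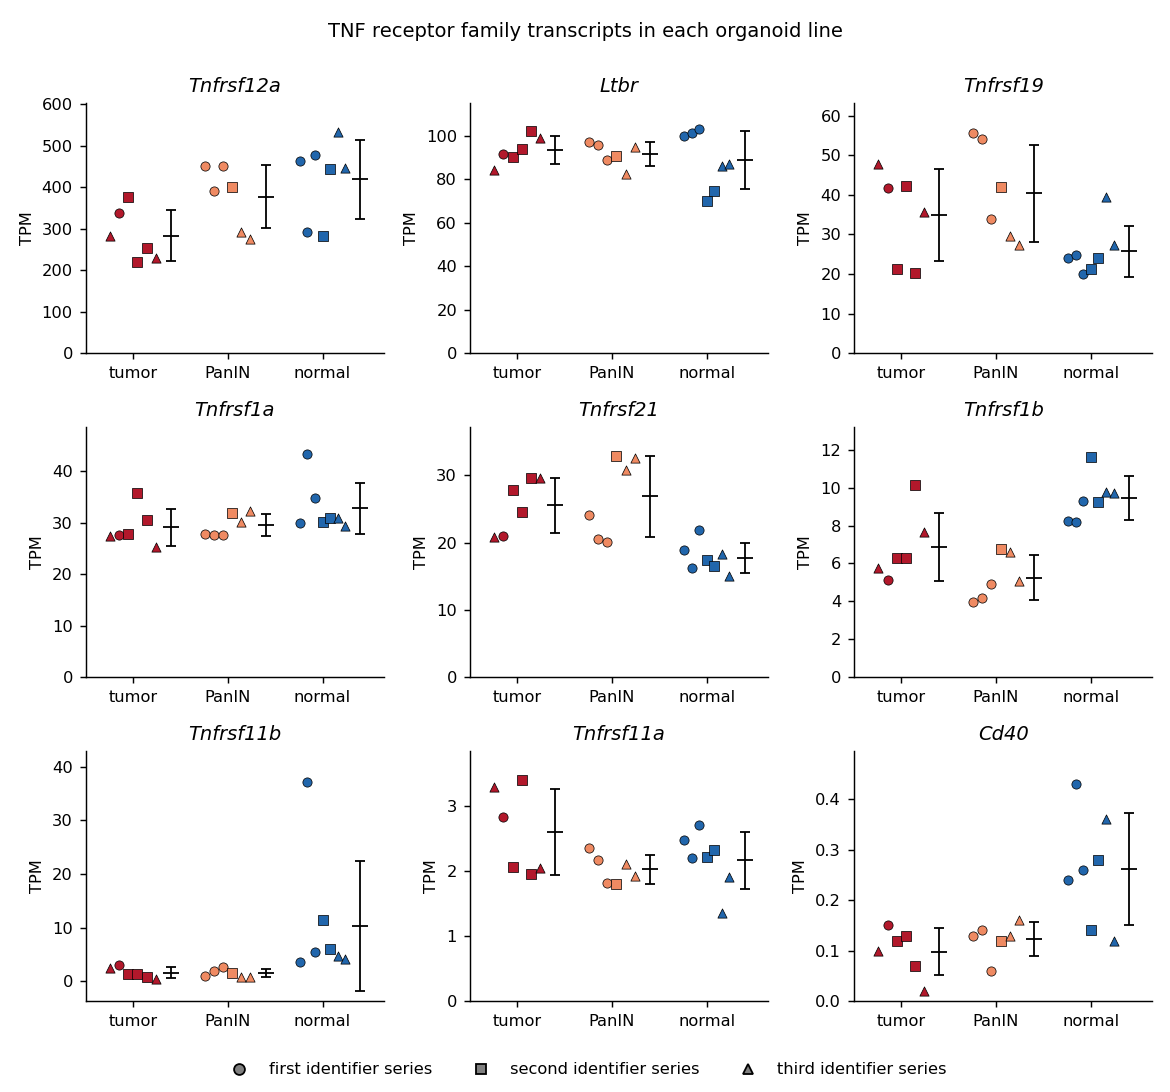
TPM of each member in every line, with tumor, PanIN and normal lines from left to right in each panel; each point is a line, its shape gives the series of library identifiers, and bars are mean ± SD (n = 6, 6 and 7). Every tumor and PanIN line lies below every normal line for Tnfrsf11b, normal 6 stands at 37.1 TPM there, and the PanIN lines of the first series lie below the others for Tnfrsf21.

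For the called members, the tested genes most alike over the 19 lines were found by Pearson's r of log2(TPM + 1), as a description in which group differences take part. For Tnfrsf11b they were Tmem178 (r = 0.954), Ephx4 (0.936) and Npl (0.933), and after subtracting group means r was 0.893, 0.838 and 0.875. For Tnfrsf21 they were Adap1 (0.922), Gipc2 (0.920) and Eif2d (0.906), with 0.873, 0.816 and 0.815 after subtraction. For Tnfrsf12a they were Slc25a24 (0.910), the duct keratin Krt18 (0.889) and Rtn4 (0.873), with 0.861, 0.820 and 0.796. For Tnfrsf1b, Atp10b (0.830) and Pilrb1 (0.825) fell to 0.507 and 0.464 after subtraction, so much of their likeness lay in the group differences.

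Other receptors of the family were mostly silent, with 7 of 19 tested. Fas, a death-domain receptor, averaged 2.60 ± 1.27 TPM in tumor lines, 6.43 ± 0.974 TPM in PanIN lines and 6.75 ± 0.994 TPM in normal lines. It fell in tumor lines against normal (-1.18, limma adjusted p = 3.42e-04) and against PanIN (-1.12, adjusted p = 0.00401), with no overlap of lines in either. Eda2r, a receptor for ectodysplasin A2, averaged 25.3 ± 4.23 TPM in tumor lines, 63.7 ± 5.72 TPM in PanIN lines and 41.1 ± 10.3 TPM in normal lines. It fell in tumor against normal lines (-0.64, limma adjusted p = 0.00553), rose in PanIN against normal lines (0.66, adjusted p = 0.0140), and differed by -1.31 between tumor and PanIN lines (adjusted p = 5.26e-04). Tnfrsf18, or GITR, averaged 1.45 ± 0.346 TPM in PanIN lines and 0.864 ± 0.147 TPM in normal lines (0.38, limma adjusted p = 0.0387), a call kept under 18 of 29 alternatives. Tnfrsf10b, the TRAIL death receptor, averaged 24.8 ± 3.14, 31.8 ± 4.31 and 26.6 ± 4.70 TPM in tumor, PanIN and normal lines and was called in no comparison, nor were Relt and the close paralogs Tnfrsf22 and Tnfrsf23, whose reads may have been split between them. Counted over the list, 0 rose and 2 fell in tumor against normal lines, 2 rose and 0 fell in PanIN against normal lines, and 0 rose and 2 fell in tumor against PanIN lines, with medians of -0.21, 0.04 and -0.35. Of all tested genes, 17.8% were higher and 14.4% lower in the first comparison. In the second 3.1% were higher and 3.68% lower, and in the third 0.392% were higher and 1.21% lower.

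Of 18 TNF ligand genes, 5 were tested. Tnf itself averaged 12.8 ± 5.57 TPM in tumor lines, 14.6 ± 3.00 TPM in PanIN lines and 21.8 ± 8.01 TPM in normal lines. It fell in tumor against normal lines (-0.73, limma adjusted p = 0.0275), a call kept under 24 of 30 alternatives and lost without tumor 5, tumor 9, normal 10 or normal 12, with the 2 groups alone and with the replicate block. For PanIN against normal lines Tnf had -0.49 (adjusted p = 0.286 in limma). Tnfsf9, the 4-1BB ligand, averaged 9.16 ± 3.21, 9.15 ± 2.60 and 8.34 ± 4.27 TPM, and Tnfsf13, or APRIL, 6.90 ± 4.08, 7.58 ± 2.53 and 6.25 ± 2.34 TPM in tumor, PanIN and normal lines, with no call. Over the list, 0 rose and 1 fell in tumor against normal lines, where 17.8% of tested genes were higher and 14.4% lower. In PanIN against normal and in tumor against PanIN lines 0 were called, against 6.78% and 1.6% of tested genes. The medians were -0.33, -0.30 and -0.03 in that order. Fasl was at 0 in tumor and PanIN lines and at most 0.04 TPM in normal lines.

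Downstream of the receptors, 32 adaptors, ubiquitin ligases and kinases were tested: 0 rose and 4 fell in tumor against normal lines, 0 rose and 1 fell in PanIN against normal lines and 0 were called between tumor and PanIN lines (medians -0.01, -0.06 and 0.02). Of all tested genes, 17.8% were higher and 14.4% lower in tumor than in normal lines. In PanIN against normal lines 3.1% were higher and 3.68% lower, and between tumor and PanIN lines 1.6% were called. In tumor against normal lines 8 fell after rescaling without the 11 rows, where 2451 of 12882 tested genes were lower. Without tumor 5 or without tumor 9, 2 fell, where 1409 and 1430 of 12500 were lower. Without tumor 4 or without normal 7, 3 rose, where 2838 and 2551 of 12500 were higher. Birc2, an E3 ligase of the TNFR1 complex, averaged 16.0 ± 2.20 TPM in tumor lines, 16.7 ± 1.83 TPM in PanIN lines and 20.2 ± 1.29 TPM in normal lines. Birc2 fell in tumor against normal lines (-0.33, limma adjusted p = 0.00832), without overlap but nearly touching, at 18.61 TPM in tumor 7 and 18.65 TPM in normal 5. Its relative Birc3 (-0.38, adjusted p = 0.0317, kept under 20 of 30 alternatives), the TRAF-binding Tank (-0.32, adjusted p = 0.0162) and the kinase Ikbke (-0.48, adjusted p = 0.0215, kept under 27 of 30 and lost without tumor 5 or tumor 9) also fell there in limma. Tank was the gene called in PanIN against normal lines (-0.32, limma adjusted p = 0.0487, kept under 8 of 30 alternatives). Fadd averaged 11.1 ± 1.26, 8.63 ± 0.791 and 9.01 ± 1.80 TPM in tumor, PanIN and normal lines and was not called (limma adjusted p = 0.0502 for tumor against normal).

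Of the NF-kB subunits and inhibitors, 14 were tested: 0 rose and 6 fell in tumor against normal lines, 0 rose and 2 fell in PanIN against normal lines and 0 were called between tumor and PanIN lines, with medians of -0.29, -0.25 and -0.05. Of all tested genes, 17.8% were higher and 14.4% lower in tumor than in normal lines. In PanIN against normal lines 3.1% were higher and 3.68% lower, and between tumor and PanIN lines 1.6% were called. Tnfaip3, or A20, a ubiquitin-editing inhibitor that NF-kB itself induces, averaged 14.9 ± 3.01 TPM in tumor lines, 19.5 ± 2.18 TPM in PanIN lines and 29.6 ± 6.55 TPM in normal lines. Its difference was -0.94 for tumor against normal (limma adjusted p = 2.24e-04, no overlap) and -0.55 for PanIN against normal (adjusted p = 0.0189). Relb, the subunit of the alternative route, averaged 9.35 ± 2.13, 11.5 ± 1.46 and 15.8 ± 3.59 TPM in tumor, PanIN and normal lines and fell in tumor against normal lines (-0.70, limma adjusted p = 0.00145). The inhibitor Nfkbie fell in tumor against normal lines (-0.90, limma adjusted p = 0.00321) and in PanIN against normal lines (-0.68, adjusted p = 0.0455, kept under 9 of 30 alternatives). Tnip1, a partner of A20, fell in tumor against normal lines (-0.48, limma adjusted p = 0.0127). The list holds both activating subunits and inhibitors, and Tnip2, another partner of A20, also fell in tumor lines.

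Most tested NF-kB target genes fell in tumor lines: of 18, 0 rose and 12 fell against normal lines. Of all tested genes 17.8% were higher and 14.4% lower there. The list median was -0.88, where all tested genes had 0.04. The chemokine Cxcl16 averaged 106.3 ± 19.7 TPM in tumor lines, 139.8 ± 16.2 TPM in PanIN lines and 196.4 ± 51.8 TPM in normal lines, and its tumor and normal lines did not overlap (-0.86, limma adjusted p = 5.77e-04). Csf1, the macrophage growth factor, averaged 7.17 ± 3.15, 12.5 ± 3.55 and 22.7 ± 10.4 TPM in tumor, PanIN and normal lines (tumor against normal -1.51, limma adjusted p = 0.00127). Cx3cl1 (-0.61, adjusted p = 0.00201) and the iron-binding protein gene Lcn2 (-2.12, adjusted p = 0.00278) also fell in limma, with overlapping lines. The tumor lines were split for Lcn2. It stood at 215, 253 and 238 TPM in tumor 5, tumor 8 and tumor 9. In tumor 3, tumor 4 and tumor 7 it stood at 1071, 1484 and 1760 TPM, the last above normal 7 at 1717 TPM. In PanIN against normal lines 0 rose and 2 fell, where 3.1% of tested genes were higher and 3.68% lower. The 2 were Vcam1 (-1.33, limma adjusted p = 0.0325, kept under 19 of 30 alternatives) and Saa3 (-2.06, adjusted p = 0.0397, kept under 15 of 29). The list median there was -0.40. Between tumor and PanIN lines 0 rose and 1 fell, the survival gene Bcl2l1 (-0.50, limma adjusted p = 0.0212, kept under 22 of 30), with a median of -0.44. With all lines, 0.392% of tested genes were higher and 1.21% lower. The count that fell was 0 without tumor 5, tumor 8 or tumor 9, where 58, 47 and 63 of 12500 tested genes were lower. It was 5 without tumor 4, where 738 of 12500 were lower. It was 2 without tumor 7 or PanIN 6, where 258 and 849 of 12500 were lower. It was also 0 without PanIN 1, PanIN 3 or PanIN 4, where 48, 68 and 50 of 12500 were lower. With the series covariate and with the replicate block it was 0 as well, where 56 and 7 of 12500 were lower. Of the leukocyte markers, Csf1r, the receptor for Csf1, averaged 0.555 TPM in tumor lines, 0.807 TPM in PanIN lines and 2.57 TPM in normal lines; the part of such cells in these results was not tested, with Ptprc at most 0.09 TPM.

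**Figure D4:**
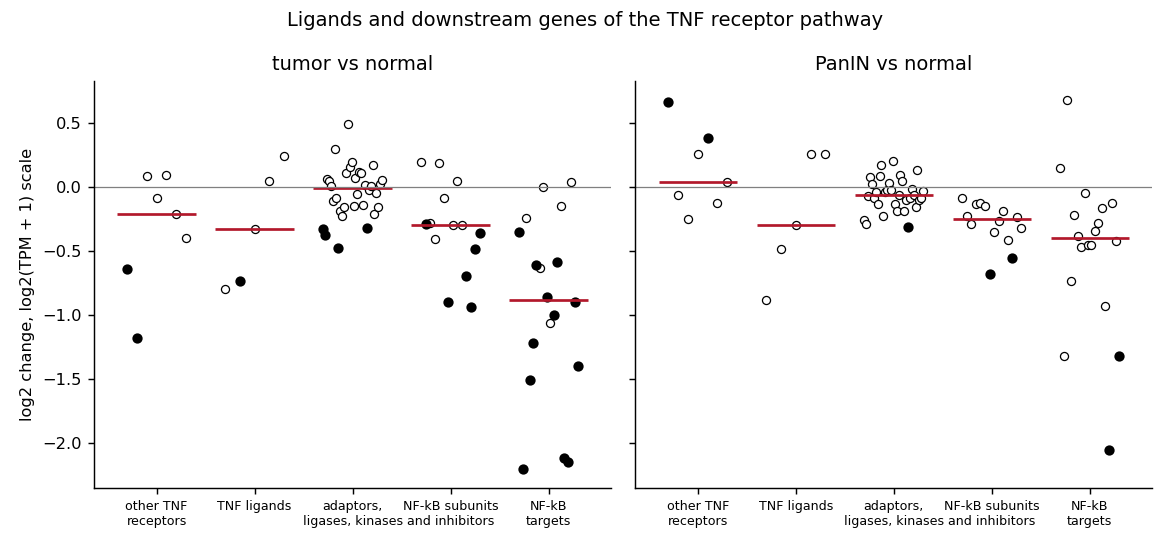
Difference of each tested gene of 5 pathway lists on the log2(TPM + 1) scale, for tumor against normal lines on the left and PanIN against normal lines on the right; filled points have an adjusted p below 0.05 in limma and red lines are list medians. In the left panel 12 of 18 NF-kB target genes are filled, all below 0, and in the right panel 2 are.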

How the data were processed

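RNA of 19 mouse organoid lines was sequenced by the authors from strand-marking, ribosome-depleted libraries, per the labels' protocols. The authors deposited TPM for each line and gene. FastQC, Bowtie 1.1.0, RSEM 1.2.11 and build mm9 are named in the submitters' processing notes, and the annotation was not given in the sources used here. The deposited table also holds the authors' comparisons: a mean signal over all lines (base mean), a log2 fold change with its standard error, a test statistic (a score per gene) and p-values, made with DESeq2 1.4.1 or DESeq per the same notes. It holds 0 columns of other samples. TPM keeps no depth, so the reads behind a value are unknown.

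Values were tested as log2(TPM + 1), which understates the change of low genes, with limma 3.58.1 in R 4.3.3 (tables read with data.table, version 1.17.8). The fit gave each group its own mean over all 19 lines, with eBayes trend, two-sided tests and Benjamini-Hochberg adjustment over 12500 genes that reached 1 TPM in at least 6 lines, and genes were called below 0.05. For each member alone an exact permutation test over lines was added, 27 in all, unadjusted. The fit was checked on simulated data. Promoters were searched in Python 3.11.15 with pandas 2.3.3 and figures drawn with matplotlib 3.10.9.

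Named were all members, up to 4 genes of smallest p per list and comparison, each ligand averaging 1 TPM or more, and the 3 genes most alike to each called member; predicted genes were left out, and the text gives a part of these. The members and lists were chosen with earlier results of these data known. One allele in the genotype labels and 1 gene that the naming rule selects are not reported here. Alternatives were other pseudocounts, filters and scalings, covariates for series or sex, a replicate block, the 2 groups alone, a robust fit, and each line left out.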

Additional observations from a re-analysis of the deposited data

Results flagged for a closer look

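Within groups, 3 of the 27 sets of lines formed by 9 members and 3 groups held a line far from the others; chance alone marks about 1 in 20. Tnfrsf11b stood at 37.12 TPM in normal 6, where the other 6 normal lines averaged 5.84 ± 2.84 TPM (SD). Tnfrsf1a stood at 43.26 TPM in the same line, where the other 6 averaged 31.0 ± 1.96 TPM. Tnfrsf19 stood at 39.44 TPM in normal 12, where the other 6 averaged 23.5 ± 2.61 TPM. No tumor or PanIN line stood apart by this measure. The calls of Tnfrsf11b were kept when normal 6 was left out.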

How the results depend on the processing

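The 4 member calls in tumor against normal lines and the 3 in PanIN against normal lines were kept under 29 of the 30 alternatives, and those of Tnfrsf11b under 28 of the 29 that tested it, including each of the 19 fits without 1 line; the exception was the replicate block. Groups share some line numbers, which the labels do not tie to a mouse, litter or day. Same-numbered lines deviated from their group means with correlations of -0.31 to 0.25 (2 pairs), -0.25 to 0.07 (2 pairs) and 0.06 to 0.10 (3 pairs) in the tumor-normal, PanIN-normal and tumor-PanIN comparisons. In none of these pairs was the same-numbered line the best partner, and the numbers were not taken as pairs. So few pairs cannot decide whether same-numbered lines belong together. With the replicate block, 0 and 0 members were called against 4 and 3, and 225, 258 and 8 genes were called in those comparisons against 4024, 847 and 200. The NF-kB target genes lower in tumor than in normal lines numbered 2 with the block, against 12. The NF-kB subunits and inhibitors numbered 1 against 6, and the adaptors, ligases and kinases 0 against 4. Of all 12500 tested genes, 189 were lower in that comparison with the block, against 1805. A line whose number no other line shares adds nothing to the group differences in the block fit.

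Genes called in tumor against PanIN lines numbered 93 without a filter, 130 with a filter of 5 TPM, 303 with median-of-ratios scaling, 333 with quantile normalization, 65 with the series covariate and 97 with the 2 groups alone, and in PanIN against normal lines 535 with a filter of 5 TPM. Leaving out each line gave 2657 (without tumor 8) to 4860 genes for tumor against normal, 496 (without PanIN 5) to 893 for PanIN against normal and 53 (without tumor 8) to 2836 (without PanIN 6) for tumor against PanIN lines, where 0 to 1 members were called. The cause was not tested.

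Signs changed only among uncalled values. Ltbr gave -0.0322, -0.0497 and -0.0375 for tumor against PanIN lines with median-of-ratios, quantile and rescaled values. For tumor against normal lines it gave -0.0195 with quantile values, -0.00498 with rescaled values and -0.15 with the replicate block. Its PanIN against normal value was -0.16 with the replicate block and ran from -4.52e-05 to 0.0915 with single lines left out. Tnfrsf11a gave 0.011 for PanIN against normal lines with quantile values. For tumor against PanIN lines, Tnfrsf11b gave -0.00916 with rescaled values and the replicate block turned Tnfrsf19 to 0.14 and Tnfrsf1b to -0.0455. With single lines left out, that comparison ran from -0.12 to 0.18 for Tnfrsf11b, from -0.0888 to 0.00751 for Tnfrsf1a and from -0.13 to 0.00752 for Tnfrsf21.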

Other observations

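Tnfrsf19 is known as a Wnt-responsive gene in the mouse intestine, and 10 Wnt target genes were listed, of which 6 were tested. In limma 0 rose and 0 fell in tumor against normal lines, where 32.2% of tested genes were called. In PanIN against normal lines 0 rose and 1 fell, where 3.1% of tested genes were higher and 3.68% lower. Between tumor and PanIN lines 0 were called, where 1.6% of tested genes were. The medians were -0.12, -0.45 and 0.44 in that order. Axin2, a feedback inhibitor of the pathway, was the gene that fell, averaging 5.16 ± 2.34 TPM in tumor lines, 2.44 TPM (0.85 to 4.43) in PanIN lines and 9.75 ± 8.34 TPM in normal lines (PanIN against normal -1.42, adjusted p = 0.0416, kept under 18 of 30 alternatives). Lgr5, a receptor for R-spondin, averaged 3.73 ± 1.46, 1.37 ± 0.293 and 4.81 ± 4.47 TPM in tumor, PanIN and normal lines and was not called. The R-spondin in the culture medium acts on this pathway in all lines.

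Among the 12 receptors below the filter, Tnfrsf8, the neighbour of Tnfrsf1b, was singled out after its values were seen. It averaged 0.615 ± 0.400 TPM in tumor lines, 0.238 ± 0.0624 TPM in PanIN lines and 0.0457 ± 0.0416 TPM in normal lines (SD, n = 6, 6 and 7). Each tumor and PanIN line was above the highest normal line at 0.1 TPM. Among tested genes, which leave out Tnfrsf8, tumor and normal lines did not overlap for 7.26%, and PanIN and normal lines for 3.05%. At these levels few reads lie behind a value, and their number in each line is unknown.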
